A study of Mus musculus with 2 samples.

Results

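Collagen genes are the mouse genes whose symbol reads Col, a type number, the letter a and a chain number. By that rule 44 of the 31053 genes counted in a mouse tumour data set are collagen genes. The series carries ACSS2 inhibitors and triple negative breast cancer in its title and holds 1 pool of tumour cells from 3 vehicle and 3 ACSS2i (ACSS2 inhibitor) samples, 4000 to 6000 live cells of each, run on 1 lane of a droplet platform. An expression library and a protein library were made from that pool, and the deposited design text names Bmal1 status, which no sample label mentions. The labels give the tissue as tumor and the strain as "NGS mouse" for every sample, and give no age, tumour line or allele. None of the sources used here says which of the 6 antibody tags marks which arm (D0, D1, D4, U2, U3, U4), so the tags are 6 samples of unknown treatment, no arm was compared, and with 1 pool no p-value is given.

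A collagen molecule is a triple helix wound from chains that may come from the same gene or from partner genes. Fibrillar collagens (types I, III and V) form the fibres of connective tissue and are chiefly made by fibroblasts. Network collagens (types IV and VIII) line basement membranes and vessel walls, beaded filament collagen (type VI) lies around cells, FACIT collagens such as Col12a1 and Col14a1 bind to fibre surfaces, and multiplexins (Col15a1 and Col18a1) sit in basement membranes. Tumour cells of many kinds also transcribe some collagen genes, and in a droplet experiment RNA that floats free of cells is counted in every droplet, so the level in T cells serves as a gauge of it.

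Of 9747 barcodes, 8784 held at least 500 genes with under 15% mitochondrial counts, and 865 of those carried more than 1 tag and were removed. Tumour barcodes (at least 3 UMIs of Krt8 and Krt18 together and none of Ptprc) numbered 5216, with a median of 25138 UMIs (unique molecular identifiers, each 1 captured RNA molecule). Barcodes of the fibroblast gate (at most 2 UMIs of Krt8 and Krt18, none of Ptprc, at least 3 of Dcn and Lum) numbered 602, macrophage barcodes (at least 3 of C1qa, C1qb and C1qc) 395 and T barcodes (at least 2 of Cd3d, Cd3e and Cd3g) 729. Their median depths were 12833, 4301 and 1647 UMIs. A gate of 36 endothelial barcodes (at least 3 UMIs of Pecam1, Cdh5 and Kdr) is given for context. Levels are CPM, a gene's UMIs scaled to 1000000 gene UMIs of its class, and intervals in brackets are exact Poisson 95% intervals that cover counting error alone. UMIs mark the 3′ ends of molecules, so levels were not divided by gene length, and capture may differ between chains.

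The fibroblast and T gates did not match their labels throughout, and the collagen values rest on them. The tumour barcodes themselves held the fibroblast proteoglycan gene Dcn at 2579 CPM, and 96.6% of them had a UMI of it, so Dcn did not set fibroblasts apart here. They held Sox9, a transcription factor gene, at 760 CPM, and the 8 listed epithelial markers (Epcam, Cdh1, Krt7, Krt19, Krt14, Krt5, Cldn3, Cldn4) summed to 1.07 CPM with Cldn4 at 0. The fibroblast gate held Sox9 at 772 CPM. It fell apart by 3 other genes of fibroblasts, Lum, Thy1 and Mfap5: 537 of its barcodes had no UMI of them, 5 had 1 or 2, and 60 had at least 3. Of the 8 fibroblast markers that did not enter this split, 7 were at least 2-fold higher in the 60 barcodes than in tumour barcodes, among them Pdgfra at 257 against 13.4 CPM and Fap at 45.3 against 0.0143 CPM. The same was true of 3 of the 8 in the other 542 barcodes, 90.0% of the gate, whose tumour population list (Sox9, Hmga2, Cxcl1, Ereg) summed to 3323 CPM against 4120 in tumour barcodes and 1299 in the 60. The 60 are called fibroblast-like and the 542 marker-low below. The split was chosen after the marker values had been seen and used no collagen gene. The 8 pericyte and smooth muscle markers summed to 920 CPM in the fibroblast-like barcodes, of which Acta2 gave 884, while Rgs5, Abcc9 and Myh11 were at 0.

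The T barcodes were mixed as well. In 50 of them, 6.86% of the class, depth was 5000 UMIs or more, and these held 42.4% of its UMIs. In 3 of the 50 (tags U3, U4 and U3, at 9652 to 15503 UMIs) Lum was at 20 to 27 UMIs, Krt8 and Sox9 were at 0, and Cd3g was at 1 to 3 UMIs. Those 3 barcodes held 99.0% of the Col1a2 and 98.7% of the Col5a2 counted in T barcodes. The remaining 679 T barcodes, under 5000 UMIs, are therefore given beside the whole class as a second gauge of free RNA, chosen after the values had been seen.

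Summed over the 44 genes, collagen transcripts made up 3004 CPM of the tumour barcodes (2995 to 3013), 7278 CPM of the fibroblast gate, 1341 CPM of macrophage barcodes and 2314 CPM of T barcodes. Within the fibroblast gate the sum was 54478 CPM in the 60 fibroblast-like barcodes and 3679 CPM in the 542 marker-low ones. In T barcodes under 5000 UMIs it was 162.7 CPM, and in the 356 macrophage barcodes with at most 2 UMIs of Krt8 and Krt18 it was 148.8 CPM. The endothelial barcodes held 6596 CPM. Over the 6 tags the tumour sum ran from 2765 CPM in D1 through a median of 3161 to 3518 in D4. The 2 extremes do not overlap in their counting intervals. In the 4 tags with at least 20 barcodes of the fibroblast gate the sum was 5171 (U2), 5478 (U3), 6930 (D0) and 10245 CPM (D1), so the gate's lowest tag lay above the highest tumour tag. The untagged barcodes numbered 1851 among tumour barcodes and 34 among the 60 fibroblast-like ones, and macrophage and T barcodes had none. The tag with the most fibroblast-like barcodes was D1 with 12, beside 7 in U2, 4 in D0 and 1 in U3. No levels per tag are therefore given for them, and the gate's tag values rest in part on these few barcodes. In T barcodes the sum ran from 144 CPM in D4 to 4589 in U3 and 4024 in U4, the tags of the 3 barcodes with Lum.

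The kinds of collagen differed between tumour and fibroblast-like barcodes. Tumour collagen UMIs were spread over beaded filament chains (26.2%), network chains (24.5%), fibrillar chains (24.1%) and multiplexins (21.2%). In the fibroblast-like barcodes fibrillar chains alone took 83.7%. In the endothelial barcodes network chains took 82.3%.

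**Figure D1:**
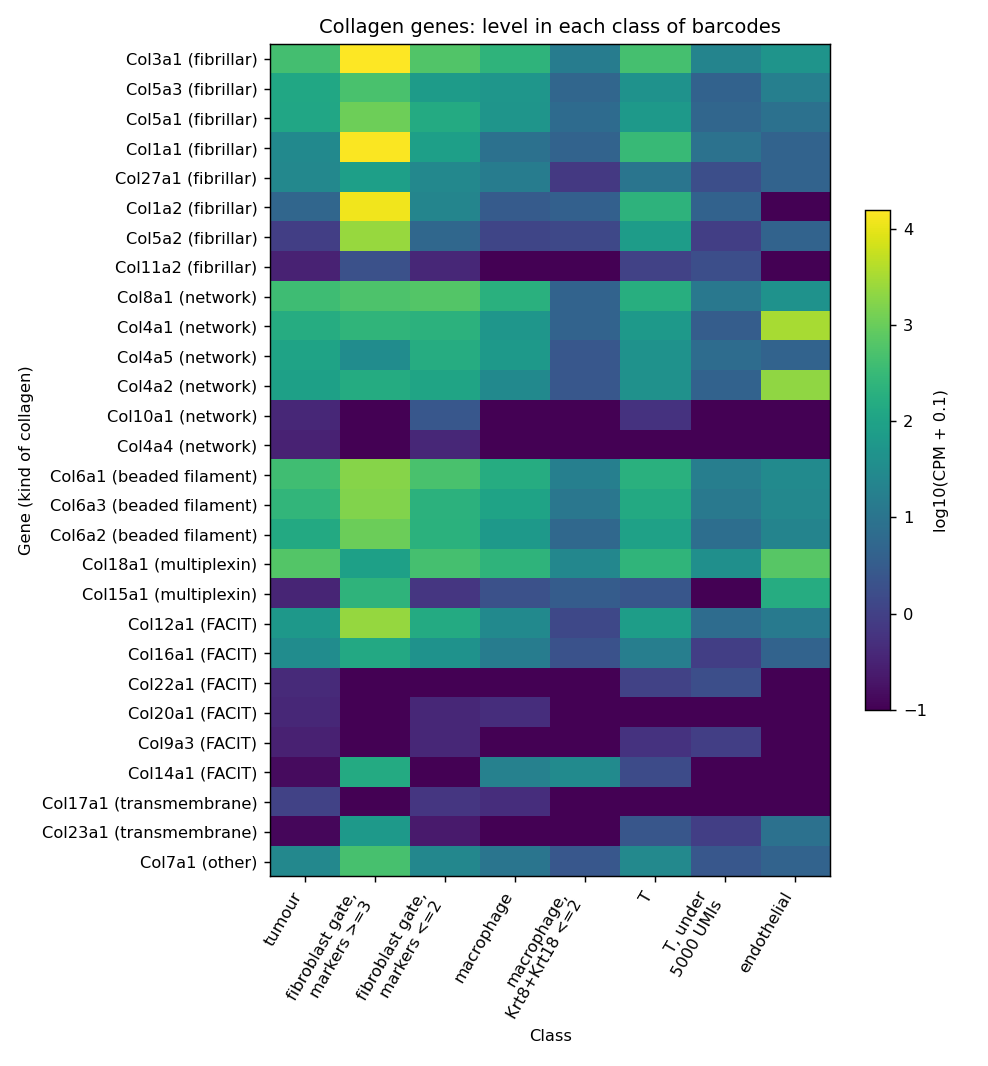
Level of the 28 collagen genes with at least 20 UMIs over the 4 gated classes (rows, grouped by kind) in 8 groups of barcodes (columns); colour is log10(CPM + 0.1), so 0 CPM reads as -1. The fibroblast-like column (fibroblast gate, markers >=3) is brightest for Col3a1 (15424 CPM), Col1a1 and Col1a2, the endothelial column for Col4a1 and Col4a2, and the columns of T barcodes under 5000 UMIs and of keratin-low macrophage barcodes are dimmer than the tumour column in each of the 16 leading chains.

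Of the 44 collagen genes, 28 reached 20 UMIs over the 4 gated classes. The other 16 (Col2a1, Col4a3, Col4a6, Col6a4, Col6a5, Col6a6, Col8a2, Col9a1, Col9a2, Col11a1, Col13a1, Col19a1, Col24a1, Col25a1, Col26a1 and Col28a1) held 0 to 13 UMIs each and 75 together, 1 of them at 0. Among the 28, 16 chains stood at 26.6 CPM or more in tumour barcodes, and the level then dropped to 5.09 CPM for Col1a2 and to 0.967 CPM or less for the other 11. Col18a1, the precursor of endostatin, led at 635 CPM (88695 UMIs), followed by Col3a1 at 427, Col6a1 at 387, Col8a1 at 385, Col6a3 at 261, Col4a1 at 161, Col6a2 at 140, Col5a3 at 121, Col5a1 at 116, Col4a5 at 100, Col4a2 at 88.8 and Col12a1 at 58.2 CPM. Col16a1 (33.4 CPM), Col1a1 (29.2), Col7a1 (26.7) and Col27a1 (26.6) closed this group. Along this order Col6a1 and Col8a1, and Col7a1 and Col27a1, are neighbours whose counting intervals overlap, while the other neighbours among the leading 16 are apart.

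Promoter sequences are shown for Col3a1 and Col8a1, the fibrillar and network chains highest in tumour barcodes, and for Col5a1 and Col5a3, a pair of type V chains that both stood there without Col5a2. Each is the 250 bases before the RefSeq start on the gene's own strand, in the GRCm38.p6 build, and no GENCODE M21 exon overlaps any of the 4 windows. Capitals mark every match, on either strand, to the CCAAT box, to GGGCGG (a GC box), to the TATAAA element, to the AP-1 site TGANTCA, and to ACAAAG (the core of a Sox or Tcf site). Col3a1 lies at chr1:45311288-45311537, Col8a1 at chr16:57754738-57754987 (minus strand), Col5a1 at chr2:27886175-27886424 and Col5a3 at chr9:20815068-20815317 (minus strand).
Col3a1: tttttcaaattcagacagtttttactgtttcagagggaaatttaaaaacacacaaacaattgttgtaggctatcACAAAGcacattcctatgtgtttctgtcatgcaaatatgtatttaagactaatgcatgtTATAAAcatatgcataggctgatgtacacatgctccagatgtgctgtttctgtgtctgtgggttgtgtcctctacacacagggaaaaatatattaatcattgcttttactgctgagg
Col8a1: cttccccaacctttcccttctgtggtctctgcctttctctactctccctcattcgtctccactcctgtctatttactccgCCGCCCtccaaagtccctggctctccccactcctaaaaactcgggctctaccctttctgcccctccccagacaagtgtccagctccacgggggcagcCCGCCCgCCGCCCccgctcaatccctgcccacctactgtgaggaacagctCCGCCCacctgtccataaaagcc
Col5a1: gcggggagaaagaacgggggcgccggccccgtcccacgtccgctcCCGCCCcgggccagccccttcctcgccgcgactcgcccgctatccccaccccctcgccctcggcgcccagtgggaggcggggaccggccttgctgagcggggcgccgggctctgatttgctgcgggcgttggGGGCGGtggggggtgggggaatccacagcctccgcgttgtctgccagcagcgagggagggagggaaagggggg
Col5a3: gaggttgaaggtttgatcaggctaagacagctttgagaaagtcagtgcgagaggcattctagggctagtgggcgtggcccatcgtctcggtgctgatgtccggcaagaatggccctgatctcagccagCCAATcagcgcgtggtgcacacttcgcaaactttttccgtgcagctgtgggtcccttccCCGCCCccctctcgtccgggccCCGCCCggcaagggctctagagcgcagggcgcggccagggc
GGGCGG was matched 4 times in Col8a1 and 2 times each in Col5a1 and Col5a3, and is found in 32.7% of the 32851 windows of this length in the RefSeq table. Col3a1 had no GC box and held 1 match each to TATAAA (12.4% of windows) and ACAAAG (16.5% of windows). CCAAT was matched in Col5a3 (33.8% of windows) and TGANTCA in none of the 4 (6.75% of windows). Of the 28 chains, 22 had an entry in the table, with 24 windows between them, and Col1a1 and Col5a2 had no entry. These matches describe letters and say nothing of binding.

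Which chains stood above free RNA in tumour barcodes was asked against T barcodes. A chain was called higher when its CPM was at least 2-fold higher and the 2 classes held at least 20 UMIs of it together. Against all T barcodes 8 of the 26 chains tested were called (Col4a5, Col27a1, Col16a1, Col18a1, Col4a1, Col4a2, Col5a3 and Col8a1), where 11.9% of all genes tested were. Their ratios ran from 2.06 for Col16a1 to 2.70 for Col5a3, and Col6a1 missed the fold at 1.95. With a minimum of 1000 genes a barcode, which leaves 199 T barcodes, the count was 0, and it was 0 as well with barcodes of more than 1 tag kept. The median log2 ratio was -0.07 over the 26 chains and -0.13 over all 13675 genes. In T over tumour, 4 of 26 were called against 15.3% of all genes: Col1a1, Col1a2, Col5a2 and Col15a1. The 3 barcodes described above held 89.5% of the T barcodes' Col1a1 UMIs, beside the 99.0% of Col1a2 and 98.7% of Col5a2, and the 5 Col15a1 UMIs lay in 1 barcode. In the T barcodes the tumour markers were also present, Krt8 at 273 CPM and Sox9 at 266 CPM. Tumour barcodes exceeded these levels 3.01-fold and 2.85-fold. The 50 deep T barcodes described earlier held 4666 of the 4863 collagen UMIs of the class. Their tumour population list summed to 2792 CPM, against 178 CPM in the other 679 T barcodes and 4120 CPM in tumour barcodes. How much of the whole-class T levels is free RNA was not tested.

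Against the 679 T barcodes under 5000 UMIs, 16 of 26 chains were called, where 20.9% of all genes were: the same 8 and Col3a1, Col6a3, Col5a1, Col6a2, Col6a1, Col12a1, Col7a1 and Col1a1. These are the 16 chains at 26.6 CPM or more. Ratios for 15 of them ran from 8.82 for Col12a1 to 48.6 for Col4a1, beside 14.6 for Krt8 and 21.4 for Sox9. Col1a1 stood lower, at a ratio of 3.21 (exact 95% interval 1.79 to 6.44 for counting error). A further pair of fibrillar chains differed little from this gauge: Col1a2 at 5.09 against 4.13 CPM (ratio 1.23, interval 0.526 to 3.81) and Col5a2 at 0.823 against 0.826 CPM. The T values are 5 UMIs of Col1a2 and 1 of Col5a2. For each chain, 6 barcodes held 63.2% and 78.3% of its tumour UMIs in turn. Whether these levels reflect free RNA was not tested. The median log2 ratio was 3.68 over the 26 chains and -0.21 over all genes. With T barcodes held to at most 2 UMIs of Krt8 and Krt18, 11 of 26 chains were called against 19.6% of all genes, as Col6a3, Col5a1 and Col6a1 joined the 8. Counted as UMIs per barcode in place of CPM, 20 of 26 were called in tumour over T barcodes, with 87.7% of all genes.

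Tag by tag, a chain was counted as higher in tumour than in T barcodes of the same tag where the counting intervals did not overlap, since T barcodes of D4 (31 barcodes) and U4 (57 barcodes) hold 0 UMIs of several chains. Of the 8 chains, Col18a1, Col8a1, Col4a2 and Col4a5 were higher in 6 of 6 tags, Col4a1 and Col5a3 in 5, Col16a1 in 2 and Col27a1 in 1. Col6a1 was higher in 6 of 6, Col6a3 and Col5a1 in 5, Col6a2, Col3a1 and Col12a1 in 4, Col7a1 in 2 and Col1a1 in 1. These intervals cover counting error alone, not the spread between barcodes. The 6 T barcodes highest in a chain held 34.9% of its UMIs for Col18a1 and 50.6% to 56.5% for Col8a1, Col4a2, Col4a5 and Col6a1. In D4 the T barcodes held 8 collagen UMIs in all. In T barcodes of the tags U3 and U4, which hold the 3 fibroblast marker barcodes, Col1a2 was at 728 and 721 CPM, while in U2, D0, D1 and D4 it was at 1.22, 9.93, 0 and 0 CPM.

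Shares of barcodes with a UMI were compared after each barcode was thinned to 1000 UMIs. Col18a1 was seen in 43.0% of tumour barcodes, 4.82% of T, 8.74% of macrophage and 11.7% of fibroblast-like barcodes. Without thinning its shares were 96.9%, 10.3%, 15.9% and 38.3%. Col8a1 was seen in 28.7% of thinned tumour barcodes and 2.49% of T barcodes, and Col3a1 in 19.4% and 3.51%. Col1a2 was seen in 0.308% of tumour barcodes and 1.02% of T barcodes. Before thinning, 3 barcodes held 45.9% of its tumour UMIs, and 3 held 99.0% of its T UMIs. Whether these shares reflect free RNA was not tested. The thinning left out 15 tumour, 45 T and 6 macrophage barcodes.

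**Figure D2:**
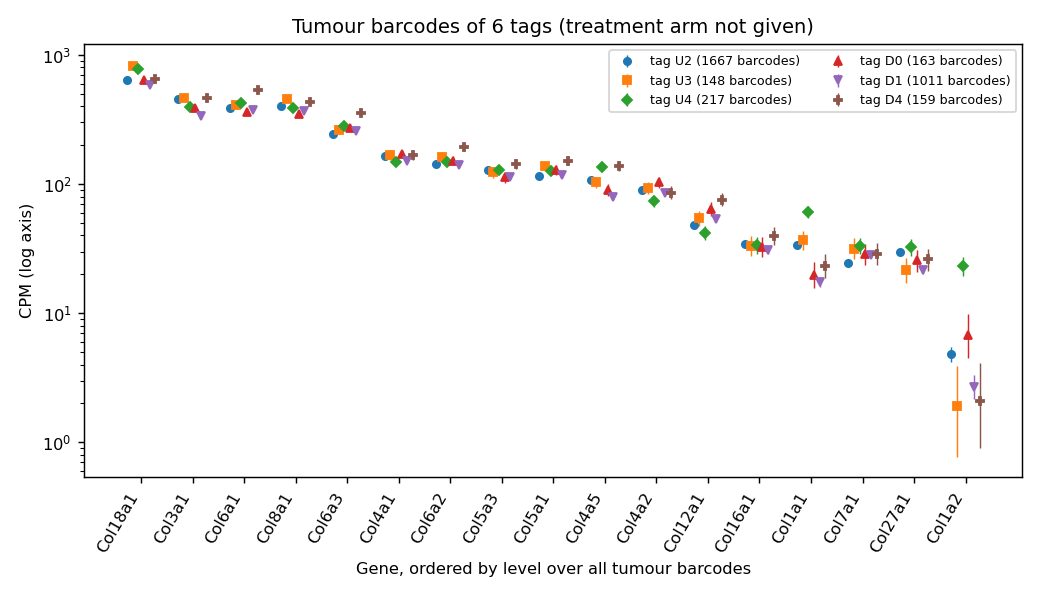
CPM (log axis) of the 17 leading collagen genes in the tumour barcodes of each tag, 148 to 1667 barcodes a tag; points are the level in 1 tag and bars its exact Poisson 95% interval. The 6 tags lie within 1.80-fold of each other for 15 of the genes, and Col1a1 (17.3 to 60.4 CPM) and Col1a2 (1.90 to 23 CPM) spread furthest, with tag U4 highest in both.

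The tagged samples kept the same order of magnitude for each leading chain. Col18a1 ran from 581 CPM in D1 through a median of 643 to 826 in U3. Col3a1 ran from 337 in D1 through 428 to 468 CPM in D4. Col6a1 ran from 364 in D0 through 400 to 536 CPM in D4. D4 also stood highest for Col6a3 at 355 and Col6a2 at 194 CPM. Col4a1 was the most even, from 148 in U4 through 166 to 171 CPM in D0, and its extremes overlap in their intervals. Col4a2, its partner, ran from 73.3 in U4 through 87.8 to 103 CPM in D0. Col1a1 was the least even of the leading 16, from 17.3 in D1 through 28.6 to 60.4 CPM in U4.

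Fibroblast-like barcodes carried the fibrillar collagens of connective tissue. Against tumour barcodes, 16 of 28 chains were called higher in them, where 11.7% of all genes were, with a median log2 ratio of 3.71 over the 28 chains and 0.25 over all genes. Col3a1 was at 15424 CPM, Col1a1 at 14295, Col1a2 at 11771 and Col5a2 at 2406 CPM, which were 36.1, 490, 2312 and 2922 times the tumour level. Col12a1, a FACIT of fibre surfaces, was at 2283 CPM, 39.2 times the tumour level, and the type VI chains Col6a1, Col6a3 and Col6a2 at 1777, 1580 and 1058 CPM were 4.59, 6.05 and 7.58 times higher. Col7a1, the anchoring fibril chain, was at 486 CPM and 18.2 times higher. Col15a1 (239 CPM), Col14a1 (150 CPM) and Col23a1 (63.4 CPM) were nearly silent in tumour barcodes, where they held 34, 6 and 3 UMIs. Col5a1, Col5a3, Col16a1 and Col27a1 completed the 16, at ratios from 3.13 for Col27a1 to 9.67 for Col5a1.

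Tumour barcodes stood higher in 2 of the 28 chains, where 12.1% of all genes were called in that direction. Col18a1 was at 635 against 88.8 CPM, a ratio of 7.15 (interval 5.41 to 9.67). Col4a5, a chain of type IV collagen, was at 100 against 32.6 CPM, a ratio of 3.07 (interval 1.94 to 5.19), and its 18 UMIs in the fibroblast-like barcodes lay in 4 of the 60, 94.4% of them in 3. Sox9 there had 86.5% of its UMIs in 3 barcodes, and its part in the Col4a5 value was not tested. Col8a1, Col4a1 and Col4a2 differed by less than 2-fold, at 536 against 385, 245 against 161 and 159 against 88.8 CPM. The 60 barcodes hold 551943 UMIs in all, so 7 chains at 0 or 1 UMI in them cannot be placed.

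**Figure D3:**
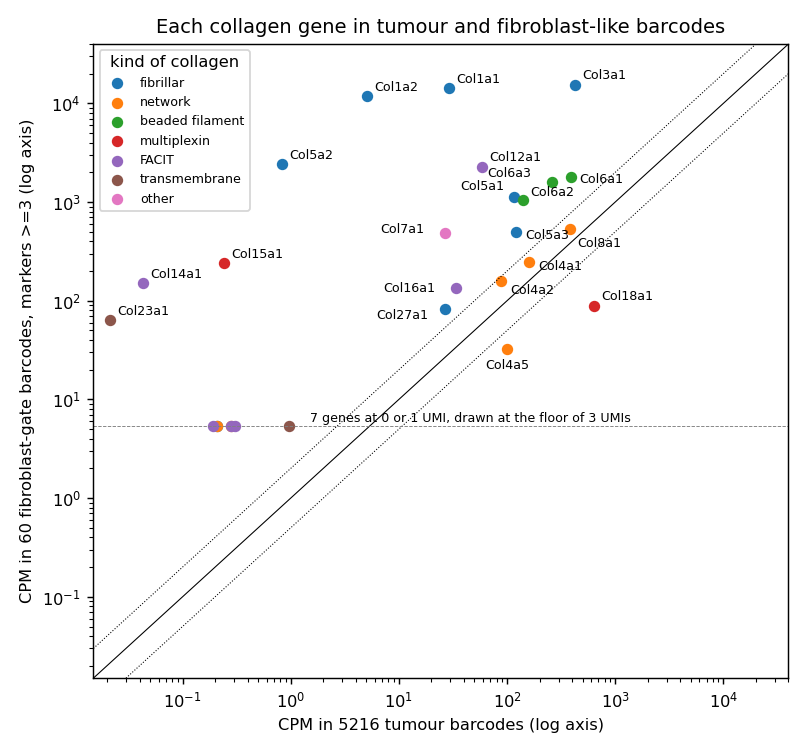
Each point is 1 of the 28 collagen genes, with its CPM in the 5216 tumour barcodes (horizontal, log axis) and in the 60 fibroblast-like barcodes (vertical, log axis); the solid line marks equal levels, dotted lines 2-fold, and the dashed line the floor of 3 UMIs in the 60. Col1a1, Col1a2, Col3a1 and Col5a2 lie far above the lines, and Col18a1 and Col4a5 lie below them.

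For the fibroblast gate as a whole, 10 of 28 chains were called higher than in tumour barcodes, against 7.51% of all genes (Col3a1, Col5a2, Col15a1, Col1a2, Col10a1, Col12a1, Col7a1, Col23a1, Col1a1 and Col14a1), and 0 of 28 lower, against 5.34%. As UMIs per barcode, 4 of 28 were higher in tumour barcodes, with 52.1% of all genes, and 8 of 28 higher in the gate, with 2.90%. In the 542 marker-low barcodes 6 of 26 were called higher, against 4.75%: Col5a2, Col15a1, Col1a2, Col10a1, Col12a1 and Col1a1, and 0 of 26 lower, against 5.64%. Most of these calls rest on a few barcodes: for each gene, 3 barcodes held 92.1% of the 38 Col5a2 UMIs, 91.1% of the 168 Col1a2 UMIs and 50.1% of the 613 Col1a1 UMIs. Col15a1 had 4 UMIs in all, and 16 of the 18 Col10a1 UMIs lay in 1 barcode. Col12a1 was spread over 303 of the 542 barcodes. Col1a2 in the gate was at 256 CPM in U2, 329 in U3, 917 in D0 and 1550 in D1, each above the highest tumour tag (23 CPM in U4). The fibroblast-like barcodes held 6497 of the gate's 6665 Col1a2 UMIs. They numbered 7 in U2, 1 in U3, 4 in D0 and 12 in D1, so each tag value rests on few barcodes. The gate's Lum ran in the same tags at 11.9, 31.0, 24.7 and 72.6 CPM, and its part in the Col1a2 values was not tested. Col3a1 was at 973 CPM in U2, 444 in U3, 1771 in D0 and 2443 in D1, and the U3 value lies within the tumour range of 337 to 468 CPM.

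The chains that make up 1 molecule were then compared, as UMIs of the partner per UMI of the first chain. Type I collagen is mostly built of Col1a1 and Col1a2 together. In fibroblast-like barcodes there were 0.823 Col1a2 UMIs per Col1a1 UMI (interval 0.797 to 0.851), and 57 of the 58 barcodes with at least 5 Col1a1 UMIs also held Col1a2. In tumour barcodes there were 0.174 (0.161 to 0.189), and 21 of the 199 barcodes with at least 5 Col1a1 UMIs held Col1a2 (10.6%, exact Clopper-Pearson interval 6.65% to 15.7%), at a median of 29114 UMIs a barcode. Of the 711 tumour UMIs of Col1a2, 63.2% lay in 6 barcodes. In the 5157 tumour barcodes with no UMI of Lum, Thy1 or Mfap5, Col1a2 fell to 1.84 CPM and the ratio to 0.0745, while Col1a1 was at 24.7 CPM.

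Type V collagen trimers mostly join Col5a1 with Col5a2, and in some tissues with Col5a3 as well. In fibroblast-like barcodes Col5a2 was at 2.15 UMIs per Col5a1 UMI and was seen in 39 of 41 barcodes with at least 5 of Col5a1. In tumour barcodes it was at 0.00711, and 11 of 1266 such barcodes held it (0.869%). Of the 115 tumour UMIs of Col5a2, 78.3% lay in 6 barcodes, and without the barcodes holding Lum, Thy1 or Mfap5 the ratio was 0.00144 and 6 of 1247 held it. Col5a3, in contrast, was at 1.04 UMIs per Col5a1 UMI in tumour barcodes and 0.445 in fibroblast-like ones, and 91.9% of the 1266 barcodes held it, beside 75.9% of all tumour barcodes. The 1266 were deeper, at a median of 30766.5 against 25138 UMIs. Col5a2 lies on chromosome 1 next to Col3a1, tail to tail with 24614 bases between the genes. Col3a1 was at 427 CPM in tumour barcodes and Col5a2 at 0.823.

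The type IV chains Col4a1 and Col4a2 form the common basement membrane trimer and lie head to head on chromosome 8, their annotated ends overlapping by 22 bases. There were 0.553 Col4a2 UMIs per Col4a1 UMI in tumour barcodes (0.541 to 0.565), 0.652 in fibroblast-like (0.493 to 0.859), 0.479 in marker-low (0.438 to 0.522) and 0.654 in endothelial barcodes (0.582 to 0.734). The intervals of tumour, marker-low and endothelial barcodes do not overlap, and that of the fibroblast-like barcodes overlaps each of them. Of 1825 tumour barcodes with at least 5 Col4a1 UMIs, 93.0% held Col4a2, beside 72.6% of all tumour barcodes, and such barcodes were deeper (median 30208 against 25138 UMIs). Endothelial barcodes were 20.3-fold and 23.9-fold above tumour barcodes in these chains, at 3252 and 2126 CPM. The 36 endothelial barcodes also held 7 of the 8 pericyte markers, summing to 278 CPM against 7.58 in tumour barcodes, and their part in these values was not tested. In all, 4 of 27 chains were called higher there, against 14.1% of genes, the others being Col15a1 (161 CPM) and Col13a1 (109 CPM), and Col18a1 stood at 704 CPM beside 635 in tumour barcodes.

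Col4a5 and Col4a6, head to head on the X chromosome with 1308 bases between them, behaved otherwise. Tumour barcodes held 14004 UMIs of Col4a5 and 0 of Col4a6, which allows up to 0.0215 CPM by a floor of 3 UMIs. None of the 1011 tumour barcodes with at least 5 Col4a5 UMIs had a UMI of Col4a6, which allows a share of up to 0.364%. Col4a3 and Col4a4, the chains that pair with Col4a5 in kidney and lung, held 2 and 29 UMIs. Col8a1 likewise had 53749 UMIs in tumour barcodes and its partner Col8a2 had 0. Both missing partners were rare in the fibroblast-like barcodes too, at 2 UMIs for Col4a6 and 6 for Col8a2, so how well these counts detect them is little known.

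Type VI collagen needs Col6a1, Col6a2 and one more chain such as Col6a3. All of these were present in tumour barcodes, with 0.361 Col6a2 and 0.675 Col6a3 UMIs per Col6a1 UMI, and 91.9% and 97.5% of the 3631 barcodes with at least 5 of Col6a1 held the partner, beside 78.1% and 91.5% of all 5216. The 3631 were deeper, at a median of 27466 against 25138 UMIs. In fibroblast-like barcodes the ratios were 0.595 and 0.889.

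**Figure D4:**
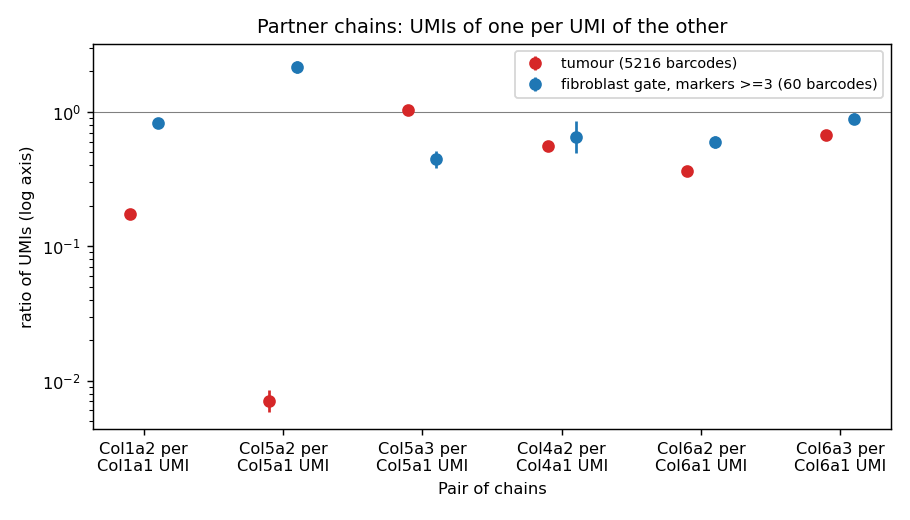
UMIs of a partner chain per UMI of the first chain (log axis) for 6 pairs, in tumour barcodes and in fibroblast-like barcodes (fibroblast gate, markers >=3); bars are exact 95% intervals for counting error, and where none is seen it is smaller than the point. Col1a2 and Col5a2 lie far lower in tumour barcodes (0.174 and 0.00711) than in fibroblast-like ones (0.823 and 2.15), and Col5a3 lies higher (1.04 against 0.445).

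Among the leading collagen chains, the measured spread between tumour barcodes was largest for the type I and type III chains, with a limit for type I given below. Each was thinned to 5000 UMIs, which kept 5113 and left out 103, and the variance of the UMIs over their mean, near 1 where only sampling acts, was taken as the spread. It was 13.1 for Col3a1 at a mean of 2.12 UMIs and 2.12 for Col6a1 at a mean of 1.99, so chains of like level differed in spread. Col18a1 was at 2.61, Col8a1 at 2.42, and of the genes outside the family Krt8 was at 4.05, Sox9 at 2.84 and Dcn at 17.4, above Col3a1. For Col3a1, 36.6% of barcodes had a UMI and the top 10% of barcodes held 69.0% of its UMIs, while for Col18a1 86.9% had a UMI and the top 10% held 29.4%. Col1a1 had a spread of 13.1 at a mean of 0.15 UMIs and was seen in 7.06% of barcodes. Of the 199 unthinned barcodes with at least 5 Col1a1 UMIs, 85.4% also held Col3a1, beside 51.8% of all tumour barcodes. The 199 were deeper, at a median of 29114 against 25138 UMIs. As a description over the 5113 barcodes, which share library and depth, the closest pair was Col6a1 and Col6a2 (Pearson r 0.46), and Col3a1 was nearest to Col8a1 (r 0.28).

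**Figure D5:**
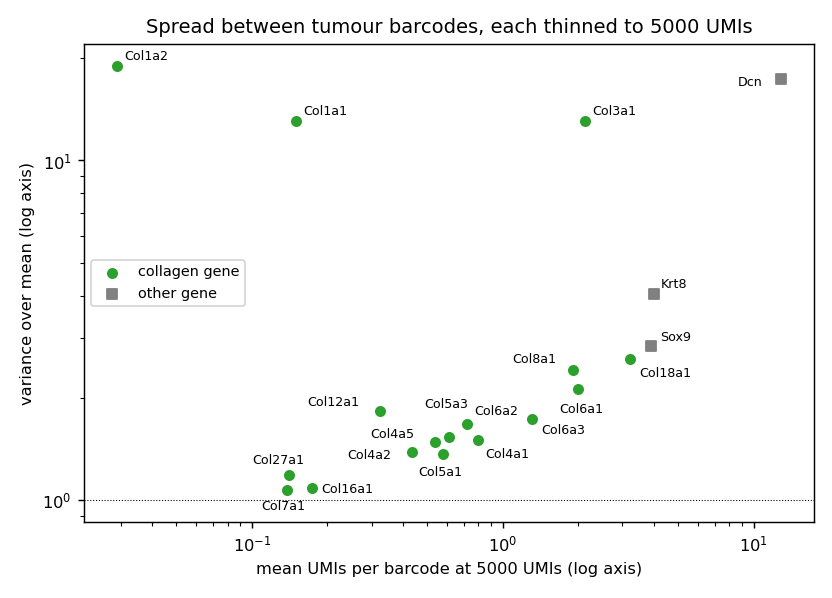
Variance over mean of the UMIs per barcode (vertical, log axis) against their mean (horizontal, log axis) in 5113 tumour barcodes thinned to 5000 UMIs each; circles are collagen genes, squares Krt8, Sox9 and Dcn, and the dotted line is 1. Col3a1 and Col1a1, both at 13.1, and Col1a2 stand above the collagen genes of like mean. Single barcodes with 87 UMIs of Col1a1 and 49 of Col1a2 weigh heavily on the values of these type I chains.

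Against T barcodes 1 of 19 chains was called higher in macrophage barcodes, where 11.1% of all genes were: Col14a1, a FACIT also called undulin, at 18.6 against 1.43 CPM. As UMIs per barcode 7 of 19 were called, with 59.2% of all genes. The 50 UMIs of Col14a1 lay in 42 of the 395 macrophage barcodes. It was at 32.3 CPM in U2, 12.5 in D0, 12.2 in D1 and 6.38 in U4, beside 0, 0, 0 and 15.5 CPM in the T barcodes of those tags. The counting intervals were apart in U2 alone, and in U4 the T value (2 UMIs) lay above the macrophage value. In tumour barcodes it was at 0.043 CPM. Against T barcodes under 5000 UMIs 16 of 17 chains were called, with 23.4% of all genes, but Krt8 in macrophage barcodes ran from 194 to 376 CPM over these tags and the tumour population list summed to 1725 CPM. In the 356 macrophage barcodes with at most 2 UMIs of Krt8 and Krt18 the count was 1 of 6, with 18.4% of all genes: Col14a1 at 30.3 CPM. These barcodes hold 48 of the same 50 UMIs, beside 0 in T barcodes under 5000 UMIs, so this is no second observation. Col18a1 was then at 25.2 CPM beside 38.8 in those T barcodes, Col3a1 at 15.1 beside 22.3 and Col6a1 at 17 beside 16.5.

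The genes that fold, cut and crosslink collagen were taken from a list of 32, of which 29 were tested. In tumour over T barcodes 12 of 29 were called, against 11.9% of all genes, with a median log2 ratio of 0.89 beside -0.13, and against T barcodes under 5000 UMIs 22 of 29, where 20.9% of all genes were. In T over tumour barcodes 2 of 29 were called, against 15.3%. The 6 members with the most UMIs were Sparc, a collagen-binding matrix protein, at 1810 CPM in tumour barcodes, Ppib, a prolyl isomerase, at 694, Lox, a crosslinking oxidase, at 427, Serpinh1, the collagen chaperone, at 392, P4ha1, a prolyl hydroxylase subunit, at 332, and Pcolce, an enhancer of procollagen cleavage, at 284 CPM. In fibroblast-like barcodes 20 of 29 were called higher than in tumour barcodes, against 11.7% of all genes, among them Sparc at 10655, Serpinh1 at 1710 and Lox at 1136 CPM, while Ppib (980), Pcolce (455) and P4ha1 (388) stayed under 2-fold. The call went the other way for 2 of 29, against 12.1% of all genes: P3h2 and Pcolce2, named after their values had been seen. P3h2 was at 3.66 CPM in tumour barcodes, under the 5.44 CPM that a floor of 3 UMIs makes in the 60. Its call therefore rests on almost no counts.

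Collagen receptors were a list of 10, of which 8 were tested. In tumour over T barcodes 5 of 8 were called, against 11.9% of all genes: Itga10, Itga11, Ddr1, Ddr2 and Mrc2. Itga10 and Itga11 had only 3 and 2 UMIs in T barcodes. The counting intervals of their ratios ran from 1.04 to 14.8 and from 0.707 to 21.3. In T over tumour barcodes 2 of 8 were called, against 15.3%: Itga1 at 31.4 against 3.42 CPM and Itga2 at 7.61 against 2.34 CPM. Itgb1, the shared integrin beta chain, was at 586 CPM in tumour barcodes, the kinase receptors Ddr2 and Ddr1 at 84.3 and 24.9, the uptake receptor Mrc2 at 42.3, and the integrin alpha chains Itga10 and Itga1 at 4.35 and 3.42 CPM. Fibroblast-like barcodes were called higher in 3 of 8, against 11.7% of all genes, which were Mrc2 (154 CPM), Itga1 (79.7) and Itga11. They were called lower in 2 of 8, against 12.1%, Ddr1 (5.44 CPM) and Itga10 (1.81). In the 60 barcodes a floor of 3 UMIs is 5.44 CPM. Ddr1 lies at that floor, and both levels of Itga10 lie under it, so Itga10 cannot be placed there.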

How the data were processed

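Gene expression and 6 antibody tags were counted in 1 pool of mouse tumour cells. The deposited values are raw UMI counts per feature and barcode, made by the authors with Cell Ranger and mm10 (both per the submitters' processing notes). Per the file headers the matrix comes from software of version 3.1.0. The sources used here do not give the annotation. Features and barcodes are paired with the matrix by row order, and no barcode is repeated.

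HTODemux of Seurat 5.3.0 under R 4.3.3 called the tags (quantile 0.99, seed 42) over barcodes passing 500 genes and 15% mitochondrial counts. Barcodes positive for more than 1 tag, or in more than 1 gated class (38 of the tumour gate), were removed. Of the rest, 5590 barcodes bore 1 tag and 2329 bore no tag. Both kinds were used, and no other doublet caller was used. UMIs were summed per class in Python 3.11.15 with numpy 2.4.6, scipy 1.17.1 and pandas 2.3.3. A gene was called at a CPM ratio of at least 2 with at least 20 UMIs in the 2 classes together, a class at 0 being set to a floor of 3 UMIs. The rule was tested on simulated data of independent counts, which do not cover UMIs gathered in a few barcodes. Intervals are exact at 95% and cover counting error alone. Thinning drew UMIs without replacement (seed 1). Values per tag are given for tags with at least 20 barcodes of the class.

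Positions and exons come from GENCODE M21 (GRCm38), where all 44 genes matched by identifier, and promoters from RefSeq (GRCm38.p6). Every collagen gene with at least 20 UMIs over the 4 classes is given values, and of the collagen-making and receptor lists the 6 members with the most UMIs. The members and lists were chosen with earlier results of these data known. Alternatives to filters, gates, scale, fold, UMI minimum and thinning depth, and each tag left out, are described in the closing section. Arms were not compared, since no source used here maps tags to arms.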

Additional observations from a re-analysis of the deposited data

Results flagged for a closer look

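A tag far from the others was looked for in 23 sets of tag values, those of each chain with at least 100 tumour UMIs in tumour barcodes and those of summed collagen in each of the 4 classes. By chance about 1 in 20 such groups is marked, and 4 were, all in tumour barcodes. The groups share tags and barcodes and are not independent, so the count cannot be weighed against that rate. Col1a2 was at 23 CPM and Col5a2 at 4.71 CPM in tag U4. In the other tags Col1a2 ran from 1.90 to 6.77 CPM and Col5a2 from 0 to 0.588 CPM. Lum in the tumour barcodes of U4 was at 1.92 CPM and ran from 0 to 0.502 CPM in the other tags, and its part in these values was not tested. Col6a1 was at 536 CPM and Col6a3 at 355 CPM in tag D4, while the other tags ran from 364 to 423 and from 244 to 283 CPM.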

How the results depend on the processing

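No paired analysis was possible because no source maps tags to arms. Classes of 1 tag share a sample, and they are set side by side within tags in the report, as counts of tags without a test. Of 2464 levels of single genes recomputed under the alternatives, 2262 stayed within 1 SD over tags and 202 moved. Of 224 shares of thinned barcodes, 142 stayed within their interval.

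The 8 chains higher in tumour than T barcodes became 0 with at least 1000 genes (199 T barcodes), 0 with multi-tag barcodes kept, 0 at a fold of 3, 1 with tumour barcodes without Dcn and Lum (173 barcodes), 3 with barcodes of more than 1 class kept, 4 with tumour barcodes of at least 10 Krt8 and Krt18 UMIs, 20 per barcode and 16 with T barcodes under 5000 UMIs. For collagen-making genes the 12 became, in the same settings, 3, 2, 2, 4 and 6, then 20 with T barcodes of at most 2 Krt8 and Krt18 UMIs, 29 per barcode and 22 under 5000 UMIs. The 5 receptors became 0, 2, 1 and 2 in the first 4 settings.

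The count of 0 chains higher in tumour than fibroblast gate barcodes became 1 with exactly 1 tag, with tumour Krt8 and Krt18 at 10, with Pdgfra or Pdgfrb in the gate or with Dcn and Lum at 10, 2 with the 60 fibroblast-like barcodes and 4 per barcode. The 10 chains higher in the gate became 16 in the 60 and 6 in the 542. Collagen-making genes higher in the gate, 4, became 20 in the 60, 0 in the 542, 12 without Krt8 and Krt18, 8 against tumour barcodes without Dcn and Lum, 2 per barcode and 2 at a fold of 3. Receptors, 1, became 3, 2, 3 and 0 in the 60, without keratins, without tumour Dcn and Lum and per barcode. The single chain higher in macrophage than T barcodes became 7 per barcode and 16 against T barcodes under 5000 UMIs.

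Summed collagen moved from 1341 CPM in macrophage barcodes to 1747 with more than 1 class kept, 1712 with tumour barcodes held to no Dcn and Lum, and 149 with Krt8 and Krt18 at most 2. It moved from 3004 to 2118 CPM in tumour barcodes without Dcn and Lum, from 7278 to 18195 CPM in the gate without Krt8 and Krt18, to 54478 in the 60 and 3679 in the 542, and from 2314 to 163 CPM in T barcodes under 5000 UMIs.

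With each tag left out in turn (leave-one-out), the chain counts ran from 7 to 10 for tumour over T, 9 to 10 for the gate over tumour and 1 to 2 for macrophage over T barcodes (2 without U2). Summed collagen in T barcodes ran from 1557 CPM to 2838 CPM.

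The causes of these moves were not tested. The T and macrophage barcodes hold few UMIs, so 3 barcodes can carry a chain's level there, and 1 pool with no mapped arms gives no spread between animals of a group.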
